A study of Mus musculus with 18 samples.

Results

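The clustered beta and gamma protocadherins are 44 of the 24062 genes in the count table, taken as every row whose symbol starts with Pcdhb or Pcdhg. Of these, 22 are beta genes and 22 are gamma genes, the latter made up of 12 of type A, 7 of type B and 3 of type C. Both clusters lie on mouse chromosome 18, the chromosome that also carries Apc, and together span 577 kb of the mm10 genome. The family was picked because Pcdhb11 was higher by estimate in tumours of Macrod2 carriers, heterozygous or null, than in wild type. Every comparison of Macrod2 carriers with wild type is therefore given here as a description, from which no test is read. In all, 29 members passed the filter on low counts and entered the fit (19 beta, 4 gamma A, 4 gamma B and 2 gamma C), and 15 did not.

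Clustered protocadherins are adhesion proteins of the cell surface, known above all from neurons, where matching isoforms on facing membranes bind each other and let a cell tell its own processes from those of its neighbours. A beta gene is a single large exon that encodes a whole protein. A gamma gene consists of its own first exon, with its own promoter, spliced to a set of constant exons that all gamma genes share, so that choosing a gamma isoform means choosing a promoter. In neurons the A and B promoters are chosen at random and differ from cell to cell, with DNA methylation, the looping factor Ctcf and cohesin taking part, while the C-type isoforms are used more evenly and also outside the nervous system. Methylation and silencing of the clusters have been described in several human tumour types, colorectal cancer among them.

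RNA sequencing covered 18 intestinal tumours of male C57BL/6 mice, 1 tumour from each numbered mouse, and no ages are given. All mice carried ApcMin/+, a germline truncation of Apc that leads to many intestinal adenomas, and none had an intact Apc genotype. The groups were ApcMin/+/Macrod2+/+ (wt, 6 tumours), ApcMin/+/Macrod2-/+ (het, 6 tumours) and ApcMin/+/Macrod2-/- (hom, 6 tumours), where Macrod2 encodes an enzyme that removes ADP-ribose from proteins. Every tumour came from the large intestine except het 4, from the small intestine, whose values are given but enter only an alternative fit with intestinal site as a covariate. Levels are CPM, counts scaled to a common library size with TMM factors, and a whole tumour was sequenced in bulk, so more cells of a type and more RNA per cell cannot be told apart.

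Library totals ran from 13529204 counts (wt 4) to 20857918 (hom 1), and no library repeated another. The mean CPM of Macrod2 was 3.74 ± 0.605 in the 6 wt tumours, 2.20 ± 0.749 in the 5 het tumours and 0.158 ± 0.145 in the 6 hom tumours (± SD), in the order of the labels, and Apc stood between 95.5 and 246.0 CPM. Epithelial markers summed to between 11652 and 22071 CPM in the 17 large intestinal tumours, fibroblast markers to between 399.6 and 1007 CPM. The markers of enteric neurons and glia summed to at most 26.5 and 8.76 CPM, and the glial factor Sox10 did not exceed 0.219 CPM. In wt 3 the ribosomal transcript Rn45s took 27.0% of all counts, against at most 0.725% elsewhere. Gata4, a transcription factor of the proximal gut, stood at 171 CPM in wt 1 and 179 in wt 2, near the 166 CPM of the small intestinal tumour and above the other large intestinal tumours, where it did not exceed 47.3 CPM. Results that rest on wt 1 and wt 2 are therefore given with and without them.

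Reads were spread unevenly over the family. A single gene, Pcdhgc3, held 10016 of the counts of the family in the 17 large intestinal tumours, whereas the 22 beta genes together held 15057 and the 19 gamma A and B genes 4723. The neighbouring alpha cluster, whose genes have the same design of variable and constant exons, was almost without reads. Its 15 genes summed to 63 counts over the same 17 tumours, 5 of them had none, and no alpha gene passed the filter. The map of levels by tumour shows bands across all tumours for a few genes (Pcdhgc3, Pcdhb9, Pcdhb17) and isolated bright cells in the gamma A and B block. The bands were not of even level: Pcdhgc3 ran from 6.06 CPM in wt 4 to 55.8 in het 5.

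**Figure D1:**
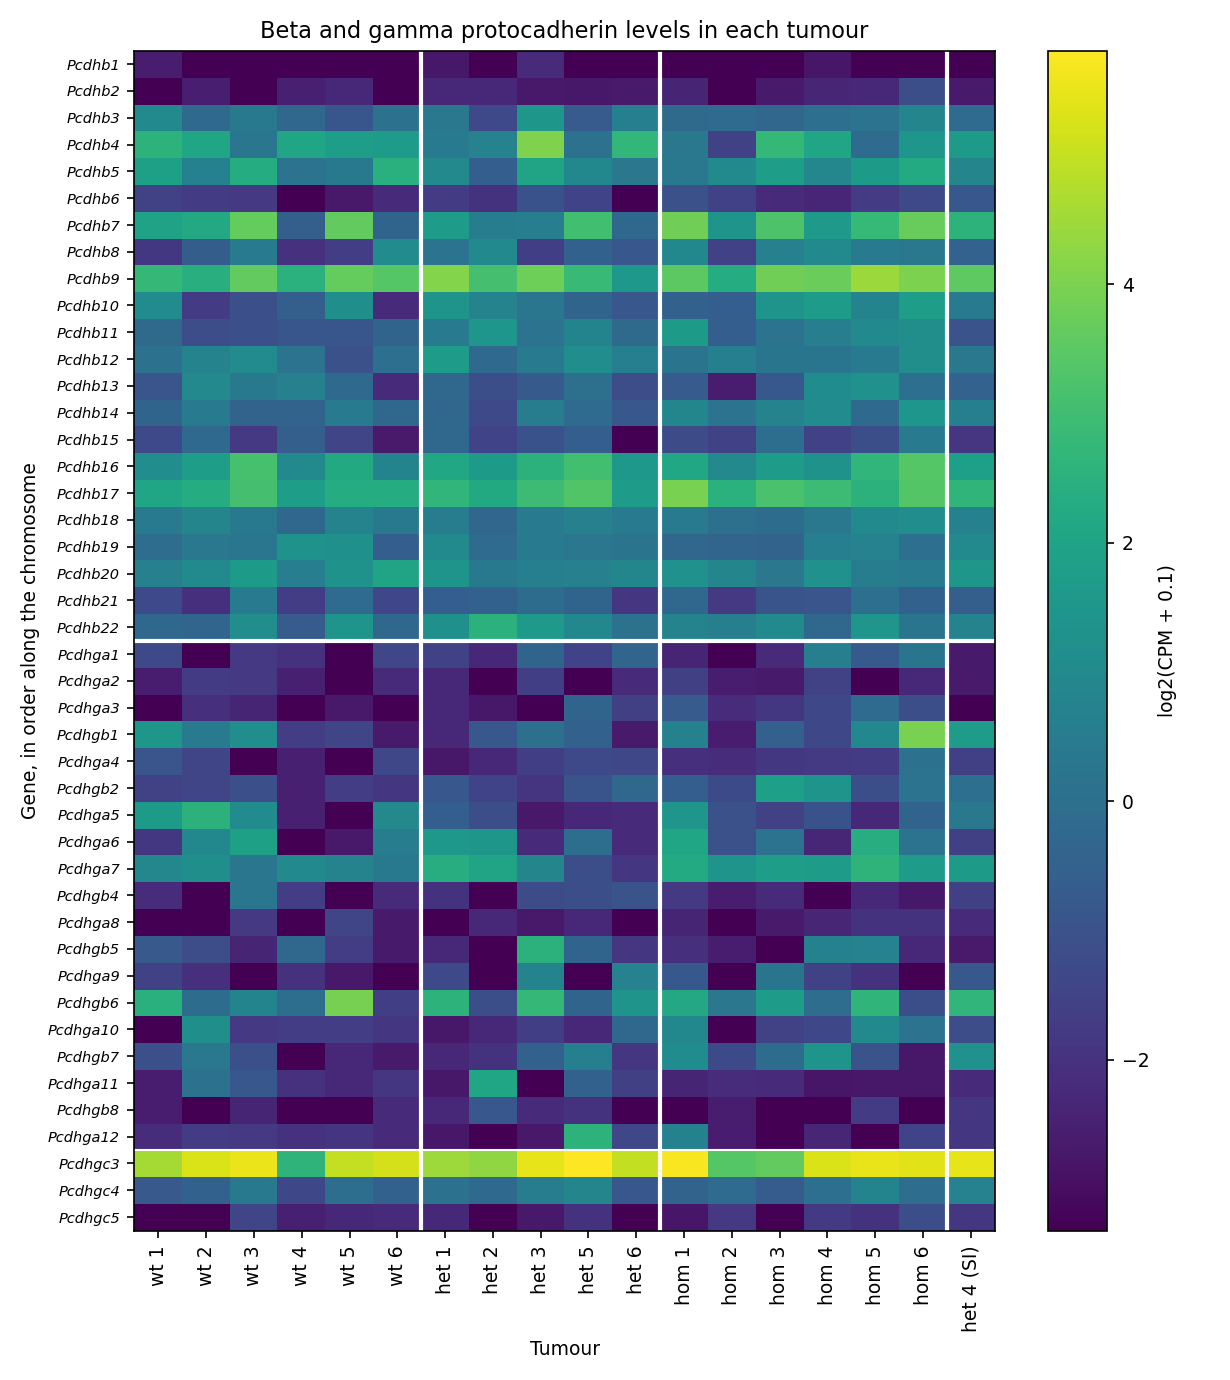
Level of each of the 44 members, in the order of the genes along the chromosome, in 17 large intestinal tumours and the small intestinal tumour het 4 (SI), as log2(CPM + 0.1). White lines separate beta, gamma A and B, and gamma C genes and the genotypes; Pcdhgc3 is the brightest row, and Pcdhgb1 in hom 6 and Pcdhgb6 in wt 5 are the brightest cells of the gamma A and B block.

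Pcdhgc3, the C-type isoform best known outside the brain, was read in every tumour. It had 389, 569, 505, 83, 571 and 661 counts in wt 1 to 6. It had 436, 384, 791, 1086 and 540 in het 1, 2, 3, 5 and 6 and 775 in the small intestinal het 4. It had 1108, 167, 207, 805, 891 and 823 in hom 1 to 6. Low tumours occurred in wt (wt 4) and in hom (hom 2 and hom 3), and the genotypes overlapped over nearly their whole range. The mean was 30.6 ± 14.3 CPM in wt, 34.4 ± 15.3 in het and 33.5 ± 17.7 in hom (SD, n = 6, 5 and 6), and hom against het gave a log2 fold change of -0.04 (SE 0.47). Within the C type it made up between 91.3% and 98.7% of the counts of a tumour. Pcdhgc4, an isoform that neurons need to survive, averaged 0.865 CPM over the 17 tumours, and Pcdhgc5, a late neuronal isoform, had 32 counts in all and none in 5 of them.

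The deposited gene lengths of the gamma genes, 4480 to 5079 bases, include the constant exons, which make up 2119 bases in the GENCODE models of mm10. Yet single gamma genes were listed at 0 in tumours where Pcdhgc3 had many counts, as Pcdhgb5 was in het 2 and hom 3 (384 and 207 counts of Pcdhgc3), so reads of the constant exons were not given to every gamma gene. Per length, the authors' RPKM averaged 6.99 for Pcdhgc3, 3.52 for Pcdhb9, 2.08 for Pcdhb17, 1.64 for Pcdhb7, 0.713 for Pcdhgb6 and 0.552 for Pcdhga7. Counted over the bases outside the constant exons alone, the gamma values became 12.8 for Pcdhgc3, 1.30 for Pcdhgb6 and 1.01 for Pcdhga7, while beta values did not change. On both scales the level of Pcdhgc3 was above that of every other member. The second scale assumes that no reads of the constant exons were counted for these gamma genes, Pcdhgc3 included, which is not known. Members are close copies of each other, so the split of reads between paralogs is uncertain throughout.

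Among the beta genes, Pcdhb9 had the highest level and Pcdhb1 the lowest. Pcdhb9 averaged 8.77 ± 3.37 CPM in wt, 9.94 ± 5.73 in het and 13.4 ± 5.43 in hom (SD, n = 6, 5 and 6), with 49 counts in het 6 at the low end and 423 in hom 5 at the high end. Pcdhb17 averaged 5.10 ± 1.79, 6.31 ± 2.63 and 8.95 ± 3.74 CPM in the same order, and Pcdhb7 5.68 ± 5.39, 2.95 ± 3.05 and 8.11 ± 4.93. For each of the 3 genes the genotypes overlapped. Pcdhb7 was the unsteadiest of them, with 8 counts in wt 4, 12 in wt 6 and 13 in het 6 against 303 in hom 1. Pcdhb1, Pcdhb2 and Pcdhb6 had 5, 25 and 57 counts in all 17 tumours and did not pass the filter. Most beta genes were read in most tumours, and 19 to 22 of the 22 had at least 1 count in every tumour. Pcdhb9 led in 11 of the 17 tumours, Pcdhb17 in 3, Pcdhb4 in 2 and Pcdhb7 in 1, and the leading gene held between 14.3% and 33.9% of the beta counts (median 23.2%).

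Pcdhb11, the gene for which the family was chosen, was read in every tumour. It had 13, 5, 4, 6, 8 and 12 counts in wt 1 to 6. It had 24, 52, 18, 32 and 14 in het 1, 2, 3, 5 and 6, and 7 in the small intestinal het 4. It had 64, 9, 17, 29, 38 and 43 in hom 1 to 6. The 5 large intestinal het tumours lay above all wt tumours, though by little (0.799 CPM in het 6 against 0.788 in wt 1), hom 2 lay among the wt tumours, and the small intestinal het 4 was as low as wt. The means were 0.509 ± 0.181 CPM in wt, 1.46 ± 0.740 in het and 1.68 ± 0.878 in hom (SD, n = 6, 5 and 6). On the log2 scale the estimate was 1.50 (SE 0.42) for het against wt, 1.70 (SE 0.41) for hom against wt and 1.60 (SE 0.37) for both carrier groups against wt. The estimate for hom against het was 0.19 (SE 0.39), with an adjusted p of 0.999 by edgeR's quasi-likelihood test. The family was not chosen on its neighbours on the chromosome, but they were measured in the same tumours, so their estimates are not independent of the choice. Pcdhb10 gave 1.05 (SE 0.65) and Pcdhb12 0.24 (SE 0.38) for hom against wt.

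**Figure D2:**
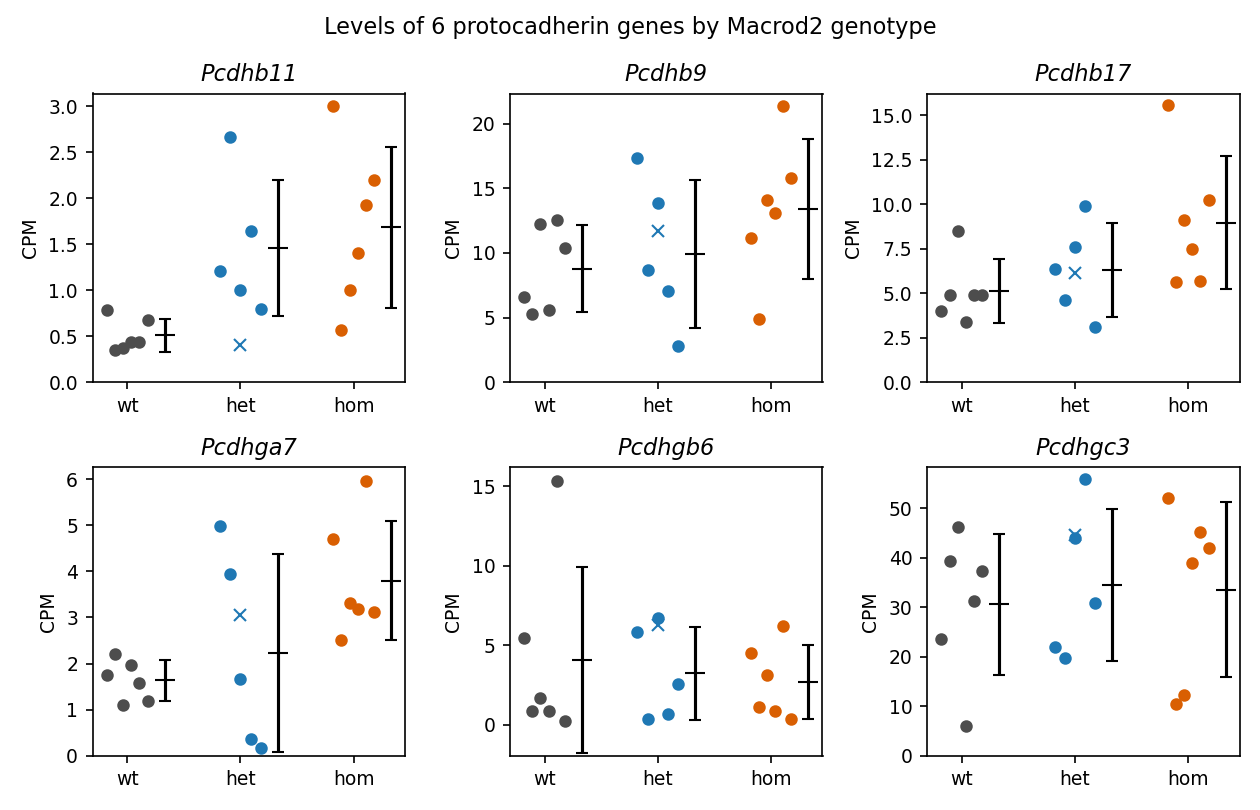
CPM of 6 protocadherin genes in each large intestinal tumour by Macrod2 genotype (dots), with the mean and SD beside them and the small intestinal het 4 as a cross, on a linear axis that starts at 0 except for Pcdhgb6, where the SD reaches below it. The wt dots of Pcdhb11 lie between 0.346 and 0.788 CPM, the hom dots of Pcdhga7 between 2.52 and 5.97, and wt 5 stands alone at 15.4 CPM for Pcdhgb6.

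For hom against het, the comparison on which the members were not chosen, 0 members were called at an adjusted p of 0.05, in the fit or under any of its alternatives. Over all 14271 genes tested, edgeR's quasi-likelihood test called 1 gene there (0.00701%), which was Macrod2 itself. At an unadjusted p under 0.05 stood 2 of the 29 members beside 1.88% of all genes, and the smallest adjusted p of a member was 0.999. DESeq2 and limma-voom called 0 members there as well, with 3 and 2 members at an unadjusted p under 0.05.

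In hom against het the estimates stood above 0 for 18 of the 29 members, beside 47.7% of all genes, with a median log2 fold change of 0.42 for the members and -0.01 for all genes tested. The beta genes were split 12 to 7 (median 0.19), all 4 gamma A genes stood above 0 (median 1.17), the gamma B genes were split 2 to 2, and both gamma C genes stood below 0. The members with the smallest p in the upward direction were Pcdhb14 at 1.16 (SE 0.38), Pcdhgb1 at 2.88 (SE 1.17) and Pcdhga10 at 1.88 (SE 1.01). Those in the downward direction were Pcdhb22 at -0.83 (SE 0.48), Pcdhb4 at -1.03 (SE 0.75) and Pcdhgb5 at -1.19 (SE 1.09). Of these, Pcdhb4 and Pcdhgb5 rested on 1 tumour: without het 3 their estimates were 0.02 and 1.26. Pcdhgb1 kept its sign without hom 6 but stood at 0.98. Pcdhb14 kept an estimate of 0.97 to 1.50 under every alternative, each left-out tumour included. It averaged 0.866 ± 0.299 CPM in wt, 0.725 ± 0.396 in het and 1.63 ± 0.688 in hom (SD, n = 6, 5 and 6). Both hom 2, at 1.01 CPM, and hom 5, at 0.759 CPM, were within the het range of 0.307 to 1.33.

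Against wt, 18 of 29 members stood above 0 in het (49.2% of all genes), 22 in hom (48.8%) and 21 in carriers (48.8%). These contrasts share the 6 wt tumours, and the family was chosen on them, so nothing is read from their counts. Members called by edgeR's adjusted p numbered 0 in each (over all genes 0% in het, 0.00701% in hom and 0.00701% in carriers), and those at an unadjusted p under 0.05 numbered 3 in het (2.73% of all genes), 4 in hom (14.8%) and 2 in carriers (10.4%). In het against wt the estimates with the largest size were 2.01 for Pcdhgb5 (SE 1.18), 1.50 for Pcdhb11 and 1.18 for Pcdhb22 (SE 0.49) above 0, and -3.07 for Pcdhga5 (SE 1.05), -1.30 for Pcdhgb1 (SE 1.17) and -1.02 for Pcdhga10 (SE 1.05) below it. In hom against wt they were 1.70 for Pcdhb11, 1.61 for Pcdhgb7 (SE 0.88) and 1.58 for Pcdhgb1 (SE 1.03), and -1.48 for Pcdhga5 (SE 0.88), -0.61 for Pcdhgb6 (SE 0.91) and -0.49 for Pcdhb20 (SE 0.30). Pcdhga5 had its highest counts in wt 2 (82), hom 1 (56) and wt 1 (50). Gata4 sets wt 1 and wt 2 apart, and without them its estimates were -1.98 in het and -0.37 in hom, while without hom 1 that in hom was -2.54. Without wt 1 and wt 2, Pcdhga10 in het against wt turned to 0.25, and Pcdhgb7 in hom against wt kept its sign at 3.05. Others rested on a single tumour: Pcdhgb5 in het against wt stood at -0.47 without het 3, Pcdhgb1 in hom against wt at -0.33 without hom 6, and Pcdhgb6 at 0.57 without wt 5. The CPM ranges did not overlap for 1 member in het against wt (Pcdhb11, beside 0.14% of all genes), for 1 in hom against wt (Pcdhga7, beside 0.68%) and for 0 in hom against het (0.189%). Pcdhga7 ran from 1.10 to 2.21 CPM in wt and from 2.52 to 5.97 in hom, while het spanned both, from 0.171 in het 6 to 4.99 in het 1.

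**Figure D3:**
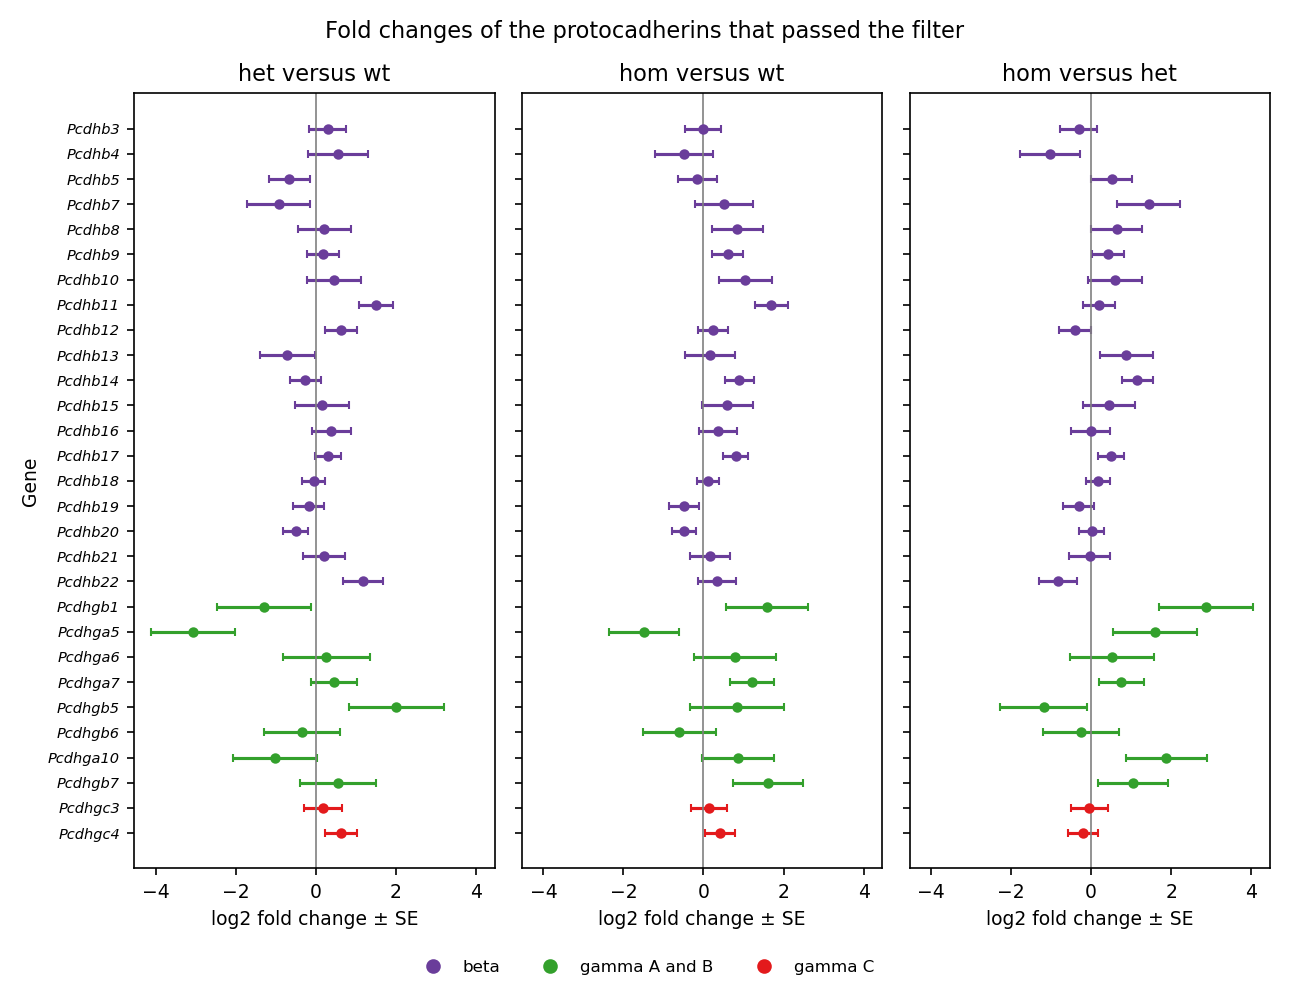
Log2 fold changes with SE of the 29 members that passed the filter, in the order of the genes along the chromosome, for het against wt, hom against wt and hom against het. The gamma A and B genes (green) have wider bars than the beta genes (purple), as with Pcdhgb1 at 2.88 (SE 1.17) in hom against het.

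The gamma A and B genes had the widest spread between tumours of the 3 gene types. Their median biological coefficient of variation, the relative spread between tumours of 1 genotype that edgeR estimates beyond counting noise, was 1.08 over 8 genes. It was 0.506 over 19 beta genes, 0.458 for the 2 C-type genes, 0.240 over all genes tested and 0.389 over the 3641 genes at a log2 CPM of -1 to 3, the range of most members. The value for Pcdhga7 (0.628) was the lowest of the 8 and that for Pcdhgb5 (1.31) the highest.

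Some gamma A and B genes were high in a single tumour, others in several. Pcdhgb1 had 302 counts in hom 6, or 15.4 CPM, while the other hom tumours had 32, 1, 10, 6 and 36, the wt tumours 45, 18, 23, 3, 5 and 1, and the het tumours 2, 9, 17, 12 and 1. Pcdhga12 and Pcdhga11 did not pass the filter and are not among the 8 genes above. Pcdhga12 had 114 counts in het 5 and 32 in hom 1, and at most 5 in each of the other 15. Pcdhga11 had 80 counts in het 2, 14 in wt 2, 12 in het 5 and at most 5 elsewhere. Pcdhgb5 had 103 counts in het 3, then 31 in hom 4, 31 in hom 5 and 13 in het 5. Pcdhgb6, a gene read in every tumour, had 281 counts in wt 5 against 4 to 90 in the other wt tumours, and 122 in hom 5, 121 in het 3 and 116 in het 1. Pcdhga6 was high in several tumours, with 101 counts in hom 5, 86 in hom 1, 56 in het 1 and 53 in het 2. Pcdhga10 had 39 counts in hom 1, 38 in hom 5 and 32 in wt 2, and Pcdhgb7 52 in hom 4, 44 in hom 1 and 28 in het 5. High tumours were found in all genotypes, and the isoform differed from tumour to tumour. The small intestinal tumour had Pcdhgb6 at 109 counts, Pcdhgb1 at 55, Pcdhga7 at 53 and Pcdhgb7 at 41.

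Read as shares of the gamma A and B counts within a tumour, Pcdhgb6 made up 82.2% in wt 5 (95% Wilson interval 77.8% to 85.9%) and Pcdhgb1 59.8% in hom 6 (55.5% to 64.0%). Pcdhga12 made up 43.2% in het 5 (37.3% to 49.2%), Pcdhga7 43.5% in hom 2 (33.8% to 53.7%) and Pcdhga11 30.9% in het 2 (25.6% to 36.8%). These intervals cover counting error only. In hom 1 the largest share was the 18.6% of Pcdhga7, and 18 of the 19 genes had at least 1 count. Over the 17 tumours 8 different genes led: Pcdhgb6 in 6 tumours, Pcdhga7 in 4, Pcdhga5 in 2, and Pcdhga6, Pcdhga11, Pcdhga12, Pcdhgb1 and Pcdhgb2 in 1 each. The effective number of gamma A and B genes in use, the inverse of the summed squared shares, ran from 1.46 in wt 5 to 8.14 in hom 1 (median 4.86), and that of the beta genes from 6.45 to 11.3 (median 8.48). The lower total of gamma A and B counts (70 to 539 in a tumour) makes these shares less precise than those of the beta genes (375 to 1542).

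**Figure D4:**
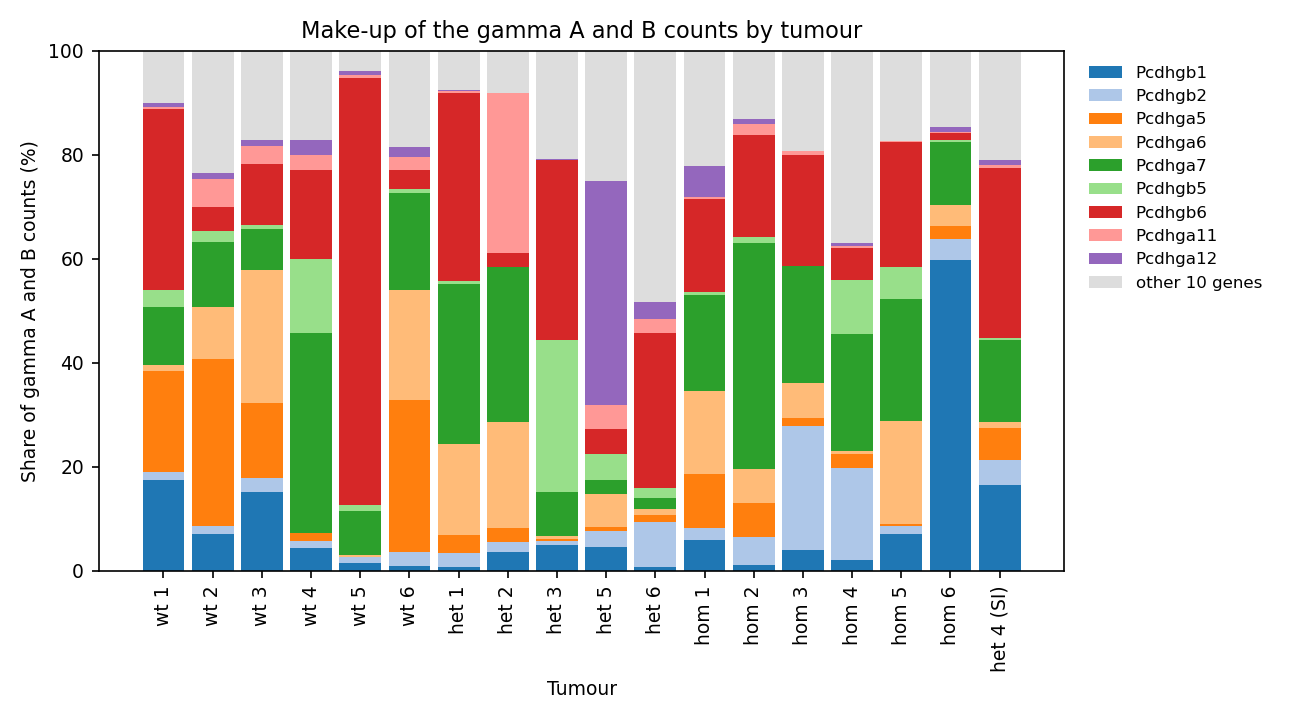
Share of the gamma A and B counts of each tumour that belongs to each of the 9 genes that reached 20% in at least 1 large intestinal tumour, with the other 10 genes in grey. Pcdhgb6 fills 82.2% of wt 5 and Pcdhgb1 59.8% of hom 6, Pcdhga12 is visible chiefly in het 5 and Pcdhga11 in het 2.

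How far a gene's signal lay in 1 tumour was measured for all genes as the share of its CPM, summed over the 17 large intestinal tumours, that the highest tumour held. An even spread gives 5.88%. Genes were included if they had at least 100 counts outside that highest tumour, so that no gene entered through its peak alone. Of 9 such gamma A and B genes, 5 had at least 25% of their CPM in 1 tumour, beside 1.75% of all 14434 genes. These were Pcdhgb1 (54.1%, hom 6), Pcdhgb5 (47.8%, het 3), Pcdhga5 (31.1%, wt 2), Pcdhgb2 (29.98%, hom 3) and Pcdhgb6 (27.1%, wt 5). Among the beta genes it was 1 of 19, Pcdhb4, a beta gene with 25.7% in het 3, and 0 of the 2 C-type genes. The share falls with depth, but among all genes of 100 to 300 counts 4.71% passed and among those of 300 to 1000 counts 4.91%, while 2 of 4 gamma A and B genes passed in each range. Pcdhga12 (64.4%) and Pcdhga11 (55.4%), with 61 and 53 counts outside their highest tumours, were too shallow to be counted. Without wt 1 and wt 2 the count was 7 of 9, and with the authors' RPKM 5 of 9. The measure and its limit of 25% were chosen after the values had been seen.

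**Figure D5:**
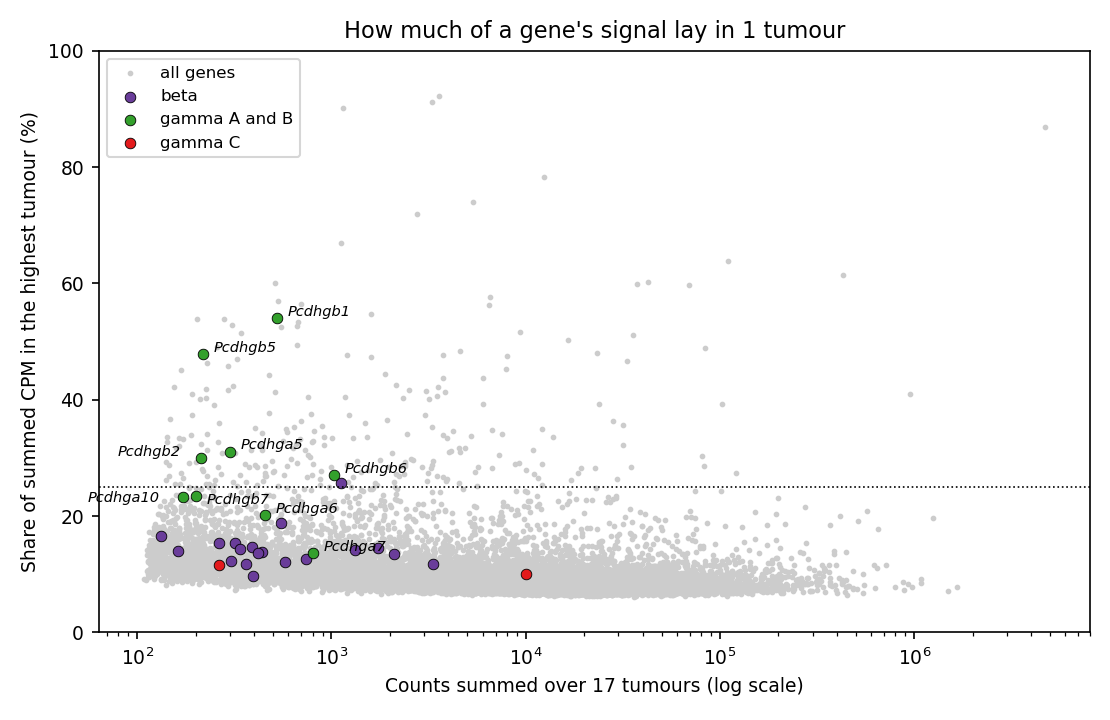
Share of a gene's summed CPM held by its highest tumour against its counts summed over 17 large intestinal tumours (log scale), for the 14434 genes with at least 100 counts outside that tumour; the dotted line marks 25%. Of the gamma A and B genes (green), 5 of 9 lie above the line, of the beta genes (purple) 1 of 19.

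Neighbouring gamma genes sometimes peaked in the same tumour. Of the 18 pairs of adjacent gamma A and B genes, 5 had their highest CPM in the same tumour (27.8%), against 6 of the 153 pairs that were not adjacent (3.92%). The 5 pairs were Pcdhga1 with Pcdhga2 (hom 4), Pcdhgb1 with Pcdhga4 (hom 6), Pcdhga6 with Pcdhga7 (hom 5), Pcdhgb5 with Pcdhga9 (het 3) and Pcdhga11 with Pcdhgb8 (het 2). For the beta genes the figures were 3 of 21 pairs (14.3%) and 25 of 210 (11.9%). The pairs share tumours and genes, so these are counts without a test. Only for Pcdhga6 with Pcdhga7 did both genes pass the filter on low counts, and some partners were very low (Pcdhga2 with 5 counts in hom 4, Pcdhgb8 with 9 in het 2). Without wt 1 and wt 2 it was 5 of 18 adjacent gamma A and B pairs against 8 of 153 others (5.23%). Pcdhgb1 and Pcdhga4 also share annotated exon sequence beyond the constant exons (3154 and 3157 shared bases against 2119 in most other gamma genes), so their reads may not be separable.

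The summed level of the family differed more between tumours of 1 genotype than between genotypes. All 44 members together gave 38.9 CPM in wt 4, the lowest, and 147.7 in hom 6, the highest, with means of 87.5 ± 29.4 in wt, 96.9 ± 28.8 in het and 110.7 ± 39.8 in hom (SD, n = 6, 5 and 6). Within the family, the median correlation of log2 CPM over 17 tumours was 0.16 for 105 pairs of beta genes and 0.22 for 10 pairs of gamma A and B genes, all of them measured in the same libraries. The level of single members was set against the score of 7 cell type marker lists over 15 tumours, leaving out wt 1 and wt 2. Of 147 relations of 21 members, 0 passed an adjusted p of 0.05, 19 had an unadjusted permutation p under 0.05, and the smallest adjusted p was 0.349. With all 17 tumours 0 relations passed as well. The relation with the smallest p was that of Pcdhga7 with the enteric neuron list (r = 0.70, permutation p = 0.0030, rho = 0.71, p = 0.0041, and r = 0.76 without the 2 tumours farthest from the median score), at an adjusted p of 0.349. For Pcdhb11 the smallest p was that with the leukocyte list (r = 0.67, permutation p = 0.0053, rho = 0.66, p = 0.0086, and r = 0.52 without the 2 farthest), followed by the fibroblast list (r = 0.64, permutation p = 0.010, rho = 0.74, p = 0.0024, and r = 0.51 without the 2 farthest), both at an adjusted p of 0.349. This order changed with wt 1 and wt 2 included. Over all 17 tumours the leukocyte list gave r = 0.46 (permutation p = 0.064, adjusted p = 0.424, rho = 0.39, p = 0.12). The fibroblast list gave r = 0.62 over the same 17 (permutation p = 0.0078, adjusted p = 0.286, rho = 0.69, p = 0.0030).

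A property of the libraries moved with several members. The difference in median log2 level between long genes (at least 4000 bases) and short genes (under 1500 bases), relative to the other tumours, was -0.725 in wt 4 and -0.431 in hom 2, the tumours with the lowest sums of members, and 0.486 in hom 6 and 0.406 in hom 1, those with the highest. Over the same 15 tumours, Pcdhgc3 had r = 0.86 with this difference (permutation p = 4e-05, adjusted p = 0.00084, rho = 0.88 with p = 7e-05), and r = 0.69 without wt 4 and hom 2. In all, 7 of the 21 members passed an adjusted p of 0.05 (Pcdhgc3, Pcdhb16, Pcdhb17, Pcdhb18, Pcdhgb1, Pcdhb7 and Pcdhb9), and 19 of 21 had an r above 0. The smallest r among these 7 was 0.62, and 19.0% of all genes tested reached it, as did 23.3% of the 4910 tested genes in the members' length range of 2841 to 5270 bases. An r above 0 was found for 49.9% of all genes tested and 61.8% of those in that length range. Tested members of at least 4000 bases enter the difference by its construction, among them the gamma genes, Pcdhb16 (5270 bases) and Pcdhb18 (5039). Most beta genes are shorter and do not enter it, such as Pcdhb17 (3270), Pcdhb7 (3506) and Pcdhb9 (3055). This relation was looked for after the data had been seen, and its part in the levels of single tumours was not tested. With a trend over gene length removed from each tumour, 0 members were called in any contrast. The median log2 fold change of the members was then 0.35 in hom against wt, beside 0.42 in the main fit. In hom against het it was 0.43, beside 0.42. Pcdhb11, on which the family was chosen, stood at 1.66 (SE 0.40) in hom against wt, given as a description.

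Genes that work with or beside the clusters were taken from lists, with 0 called in hom against het in every list. Of the 12 non-clustered protocadherins, which are not members of the clusters, 7 were tested and all 7 stood above 0 (median 0.57). Pcdh17 stood at 0.69 (SE 0.37) and Pcdh7 at 0.57 (SE 0.37). The distance of these genes from the clusters was not examined. Pcdh1 was the highest of these at a median of 105 CPM. The 19 tested factors of looping and silencing were split 10 to 9 with a median of 0.01. Ctcf stood at 93.9 to 134.6 CPM over the 17 tumours, the cohesin subunit Rad21 at 188 to 310 and the maintenance methyltransferase Dnmt1 at 63.7 to 150.5, and Trim28, a co-repressor, had the smallest p below 0 (-0.23, SE 0.13). The 14 genes of signalling partners of protocadherins, such as the kinases Fyn and Ptk2 and the actin regulators of the WAVE complex, were split 12 to 2 (median 0.10), with the WAVE subunit Abi1 at 0.26 (SE 0.09). The 9 genes of the proteases that cut protocadherins at the membrane were split 2 to 7 (median -0.05), with Psen2, a catalytic subunit of gamma-secretase, at -0.22 (SE 0.12).

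The listed genes that flank the clusters or lie inside their span were mostly lower in hom than in het by estimate. Not all are close neighbours: Hdac3 lies 94.0 kb from the clusters, Zmat2 465.3 kb and Tmco6 522.5 kb. Of 14 listed, 12 were tested, 3 stood above 0 and 9 below in hom against het (median -0.12), beside 47.7% of all genes above 0. Hdac3 stood at -0.17 (SE 0.12) and Arap3 at 0.34 (SE 0.25). Taf7, a subunit of the general transcription machinery that lies between the clusters, stood at 6.00 to 10.3 CPM in all 17 tumours. In the same tumours Pcdhgb1, a few genes away, stood at 0.0563 to 15.4 CPM, the highest in hom 6 and the next, 2.73 CPM, in wt 1. Other members were steadier, such as Pcdhgc4 at 0.292 to 1.70 CPM. Of the marker lists, the fibroblast list was split 11 to 1 in hom against het (median 0.33), the endothelial list 7 to 1 (median 0.58), the smooth muscle list 6 to 2, the leukocyte list 5 to 3, the epithelial list 4 to 6, the tested neuronal markers 3 to 2 and the tested glial markers 2 to 2. The part of these cell types in the levels of the protocadherins was not tested.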

How the data were processed

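The authors deposited 1 table of read counts per gene for each of 18 tumours, with gene lengths and the authors' RPKM values, which divide the counts by length and by a library size scaled with TMM factors. Trimmomatic, TopHat, featureCounts and Subread 1.4.5-p1 are named in the submitters' processing notes, as is the mm10 build. Whether the counting used strand, and how it treated reads in shared exons, is not given in the sources used here. Per the labels' protocols libraries came from the TruSeq Stranded Total RNA kit. All columns were matched to a sample by name.

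Counts of 14271 genes kept by filterByExpr were fitted with edgeR 4.0.16 in R 4.3.3 (TMM, robust quasi-likelihood) over 17 large intestinal tumours by genotype, and p-values were adjusted by Benjamini-Hochberg across those genes (threshold 0.05). DESeq2 1.42.0 and limma-voom 3.58.1, other scalings and filters, left-out tumours, het 4 added with intestinal site as a covariate, a replicate block and removed trends served as alternatives. The script was tested on simulated counts. The labels number the mice, so tumours were taken as separate animals. Marker scores are mean log2 CPM (prior count 2), and correlations used 100000 permutations with scipy 1.17.1.

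The members, lists and tests were chosen with earlier results of these data known. Named by rule were Pcdhb11, the 3 highest members of each type, the 3 per direction with the smallest p in hom against het or the largest fold change against wt, up to 2 genes per direction of each list, Macrod2 and Apc. Outside this rule, the other members named, Gata4, Rn45s, Sox10, Ctcf, Rad21, Dnmt1, Pcdh1 and Taf7 were chosen after their values were seen. Numbers shared by mice of different genotypes were not taken as pairs: 4 of 16 same-numbered pairs correlated above 0.1 (range -0.453 to 0.325). Pairs with different numbers ran from -0.575 to 0.617. Whether same-numbered tumours were handled together was not tested, and a replicate block served as an alternative. No sequence of a member is shown.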

Additional observations from a re-analysis of the deposited data

Results flagged for a closer look

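Single tumours stood far from the others of their genotype in 12 of 81 groups examined. The nominal rate of the test used, about 1 in 20, holds for normally distributed values, which CPM of low counts need not be. The same distance was found in 3168 of 42813 groups over all 14271 genes tested. It was found in 9.45% of groups over the 3551 of these genes at 0.5 to 8 CPM. The 81 groups are 24 members and 3 sums, in 3 genotypes each; some of the members were picked after their values were seen, so the 12 are a description. Over all 29 members that passed the filter it was 11 of 87 groups (12.6%), made up of 3 of 57 for beta genes, 7 of 24 for gamma A and B genes and the rest for C-type genes. The distance was judged by Dixon's test on CPM, within the 6 wt, 5 het or 6 hom large intestinal tumours. In wt, Pcdhgb6 stood at 15.4 CPM in wt 5 against at most 5.46 in the others, Pcdhga10 at 2.21 in wt 2 against at most 0.219, Pcdhgb7 at 1.17 in wt 2 against at most 0.366, and the beta gene Pcdhb17 at 8.52 in wt 3 against at most 4.92. Library wt 3 is the one with 27.0% of its counts from Rn45s, and wt 2 is one of those set apart by Gata4; the part of either in these values was not tested.

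In het, Pcdhga12 stood at 5.86 CPM in het 5 against at most 0.285 in the others, Pcdhgb5 at 5.72 in het 3 against at most 0.668, Pcdhga11 at 4.10 in het 2 against at most 0.617 and Pcdhga10 at 0.742 in het 6 against at most 0.222. In hom, Pcdhgb1 stood at 15.4 CPM in hom 6 against at most 1.82, Pcdhga5 at 2.63 in hom 1 against at most 0.663, Pcdhga12 at 1.50 in hom 1 against at most 0.255, and the C-type gene Pcdhgc4 at 1.62 in hom 5 against at most 0.919.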

How the results depend on the processing

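The number of members called was 0 in each contrast under each alternative, the replicate block included (0 members in hom against het), and the number of relations with marker scores past the threshold was 0 under both alternatives. Of the 5 gamma A and B genes with at least 25% of their CPM in 1 tumour, the number was 1 of 3 genes with at least 300 counts outside that tumour, 9 of 15 with at least 50, 2 of 9 at a limit of 40%, and 4 to 7 when a tumour was left out: 4 without wt 5 or het 3 and 7 without hom 1. Estimates turned sign when 1 tumour was left out in 6 cases. In hom against het, Pcdhb4 ran from -1.567 to 0.023 (without het 3), Pcdhgb5 from -1.509 to 1.257 (without het 3) and Pcdhb11 from -0.053 (without hom 1) to 0.531. In het against wt, Pcdhgb5 ran from -0.466 (without het 3) to 2.335. In hom against wt, Pcdhgb1 ran from -0.329 (without hom 6) to 2.115 and Pcdhgb6 from -1.044 to 0.569 (without wt 5). Pcdhgb6 also stood at 0.013 with limma-voom, and Pcdhga10 in het against wt at 0.252 without wt 1 and wt 2. For left-out tumours fewer samples are the construction of the alternative; for limma-voom the cause was not tested. Pcdhb11 kept its sign against wt throughout, at 1.17 to 1.66 in het and 1.45 to 1.87 in hom. The family was chosen on this difference in the same tumours, so its steady sign is a description only. The trend, length and concentration alternatives were added after seeing the data. Many members had few counts in a tumour, which limits what can be told apart, and 3 counts correspond to 0.141 to 0.275 CPM.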
